A study of Rattus norvegicus with 6 samples.

Results

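The subject is a set of 10 genes of matrix turnover in NRK-52E, an established epithelial cell line from the tubules of rat kidney. They are 6 matrix metalloproteinases (Mmp2, Mmp3, Mmp9, Mmp10, Mmp13 and Mmp14), 3 tissue inhibitors of metalloproteinases (Timp1, Timp2 and Timp3) and the ADAMTS protease gene Adamts1. They were chosen by name, as the genes whose symbol is the only one that the platform annotation pairs with a probe set. All 10 were found, among 14217 genes measured that way, and they were read by 17 of 31042 probe sets. For a gene with several probe sets, the one with the highest mean over all arrays is the main one, and every other probe set is given beside it.

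The data are 6 Affymetrix rat expression arrays. For 3 arrays, cells had been given a lentivirus encoding a short hairpin RNA (shRNA) that targets AMPKα2, which is one of the catalytic subunits of AMP-activated protein kinase, an enzyme that senses cellular energy. For the other 3 arrays they had been given a control lentivirus. Both groups were also exposed for 24 h to 10 ng/mL of recombinant TGF-β1, a cytokine that drives epithelial cells to become mesenchymal, so every value below is from cells under TGF-β1. The labels call the arrays of a group biological replicates but do not say whether they came from separate infections, and p-values measure the spread between these arrays. The study asked which transcripts differ when AMPKα2 is targeted in such cells.

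Matrix metalloproteinases are zinc-dependent enzymes that are made as inactive precursors and cut collagens, other matrix proteins and cell surface proteins once their propeptide is removed. TIMPs are small secreted proteins that block the active site of these enzymes, and the balance between enzymes and inhibitors sets how fast matrix is broken down. In the kidney this balance is studied in tubule injury and fibrosis, where TGF-β acts on genes of both sides. Many of the metalloproteinase genes are known to be induced through AP-1, a transcription factor of FOS and JUN proteins that binds the letters TGAGTCA, and Timp1 carries a known AP-1 variant site, TGAGTAA.

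Promoters of 5 of the genes are shown, because Mmp3, Mmp10 and Mmp13 are neighbours in 1 cluster of metalloproteinase genes yet differed in their values, and because Timp1 and Timp3 moved in opposite directions. Each is the window of the RefSeq promoter table of build GRCr8, from 250 bases before to 50 bases after the start that this table uses, 5′ to 3′ in the direction of the gene, and capitals mark TGAGTCA or TGAGTAA on either strand (TGACTCA or TTACTCA where the match is on the other strand). The regions are chr8:12925031-12925330 on the plus strand for Mmp3, chr8:12974457-12974756 on the plus strand for Mmp10, chr8:12782579-12782878 on the plus strand for Mmp13, chrX:3771073-3771372 on the minus strand for Timp1 and chr7:19459509-19459808 on the minus strand for Timp3.
Mmp3: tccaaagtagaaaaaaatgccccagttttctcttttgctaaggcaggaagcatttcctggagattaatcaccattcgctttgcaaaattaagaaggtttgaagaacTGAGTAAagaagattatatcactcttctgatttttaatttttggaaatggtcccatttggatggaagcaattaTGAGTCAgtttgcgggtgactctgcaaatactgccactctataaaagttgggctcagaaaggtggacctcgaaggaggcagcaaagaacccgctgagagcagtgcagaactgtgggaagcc
Mmp10: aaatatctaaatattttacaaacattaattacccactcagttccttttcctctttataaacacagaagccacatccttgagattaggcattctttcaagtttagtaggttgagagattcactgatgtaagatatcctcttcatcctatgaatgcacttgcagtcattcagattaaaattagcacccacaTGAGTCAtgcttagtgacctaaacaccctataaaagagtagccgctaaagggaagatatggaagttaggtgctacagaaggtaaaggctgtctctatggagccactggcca
Mmp13: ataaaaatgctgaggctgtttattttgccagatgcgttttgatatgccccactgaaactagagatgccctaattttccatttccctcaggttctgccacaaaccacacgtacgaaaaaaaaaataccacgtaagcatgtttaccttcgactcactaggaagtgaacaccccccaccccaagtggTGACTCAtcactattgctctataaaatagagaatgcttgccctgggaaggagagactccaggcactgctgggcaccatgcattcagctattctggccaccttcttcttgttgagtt
Timp1: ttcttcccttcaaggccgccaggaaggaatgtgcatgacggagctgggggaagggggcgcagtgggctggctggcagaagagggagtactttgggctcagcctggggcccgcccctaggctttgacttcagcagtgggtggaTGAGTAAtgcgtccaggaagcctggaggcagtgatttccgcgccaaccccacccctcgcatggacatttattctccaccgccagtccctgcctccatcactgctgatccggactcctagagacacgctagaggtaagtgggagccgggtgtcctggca
Timp3: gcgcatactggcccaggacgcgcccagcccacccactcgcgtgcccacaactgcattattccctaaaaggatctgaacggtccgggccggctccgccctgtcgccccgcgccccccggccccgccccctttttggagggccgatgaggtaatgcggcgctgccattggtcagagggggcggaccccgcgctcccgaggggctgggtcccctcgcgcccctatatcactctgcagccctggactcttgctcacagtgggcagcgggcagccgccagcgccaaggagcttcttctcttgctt

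That start is the outer end of the gene in the RefSeq gene table for Mmp10, Mmp13, Timp3, Timp2 and Adamts1, but it lies 14 bases inside the gene for Mmp3 and 1456 bases inside it for Timp1, so the whole Timp1 window is within the annotated gene. Distances are counted from the start of the window's own table. TGAGTCA lay 71 to 65 bases before the start of Mmp3, 61 to 55 bases before that of Mmp10 and 66 to 60 bases before that of Mmp13, where it reads on the other strand. It was found in 3 of the 7 genes that the promoter table holds (these 5, Timp2 and Adamts1, but not Mmp2, Mmp9 or Mmp14) and in 4.63% of all 33469 promoters of that length. TGAGTAA lay 108 to 102 bases before the start of Timp1 and 144 to 138 before that of Mmp3, in 2 of the 7 genes and 2.9% of all promoters. TATAAA, the letters of a TATA box, was held by Mmp3, Mmp10, Mmp13 and Adamts1, and by 14.2% of all promoters. GGGCGG, the letters of a GC box, was held by the 3 Timp genes and Adamts1, and by 33.1% of all promoters. CAGGAAG, an ETS-type motif, was held by Mmp3 and Timp1 and by 12.5% of all promoters, and CAGACA, a SMAD-type motif, by 0 of the 7 and by 21.1% of all. Both strands were searched for each, and neither TGAGTCA nor TGAGTAA overlapped another motif in these genes. The promoters of Mmp3, Mmp10 and Mmp13 held 42.0%, 38.3% and 45.3% G or C, and those of Timp1, Timp2, Timp3 and Adamts1 held 61.3%, 70.3%, 68.7% and 65.0%, where the median of all promoters was 51.7%. A match describes letters in these windows and does not show a bound site.

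Most genes on these arrays differed between the groups, so each value is read against that background. Of all 14217 genes, 85.1% were called by limma at an adjusted p of 0.05 (43.6% as higher with the AMPKα2 shRNA and 41.5% as lower), and in 87.1% the groups did not overlap. The change followed the expression level: its median was 0.81 (log2) in genes with a control level of 5 to 6 and -0.90 in genes at 9 to 10. Over all probe sets the SD within an array was 1.76 to 1.82 with the AMPKα2 shRNA and 2.17 to 2.19 in controls. Each gene is therefore also set beside the 500 genes nearest to it in control level, called genes of like level, and given under quantile normalization (quantile scaling) and cyclic loess (loess scaling), which make the arrays more alike in range. Prkaa2, which encodes the targeted AMPKα2, averaged 6.63 ± 0.14 with the AMPKα2 shRNA and 6.84 ± 0.05 in controls (SD, n = 3 each), a change of -0.21 that did not pass (limma, adjusted p = 0.0552), and the groups are named as labelled. The gene of the alternative catalytic subunit AMPKα1, Prkaa1, was at a mean of 6.29 with the AMPKα2 shRNA and 8.63 in controls, and fell by 2.34 in its main probe set (limma, adjusted p = 7.04e-09), with -2.04 under quantile scaling and -1.91 under loess scaling. Its other probe sets had changes of -1.03 and 0.55, so they do not share a direction. An exact permutation test of 3 arrays against 3 cannot give a 2-sided p below 0.1.

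Of 12 measured tubule markers, 10 were higher with the AMPKα2 shRNA, 1 was lower and 1 did not pass, with a median change of 0.51 that was -0.04 relative to genes of like level, and under quantile scaling 5 were higher and 1 lower. The mean log2 level over the list was 6.06 to 6.11 with the AMPKα2 shRNA and 5.45 to 5.52 in controls. The one that was lower as deposited was Krt8, a keratin of simple epithelia, at a mean of 12.24 with the AMPKα2 shRNA and 12.49 in controls. Its change of -0.06 under quantile scaling did not pass, and the marker that was lower there was Krt19, at -0.62. Of the 12, 7 markers, Epcam and Cdh1 among them, lay below the array medians in both groups. Markers of other cell types were read as well. All 8 fibroblast and pericyte markers were higher with the AMPKα2 shRNA, with a mean log2 level over the list of 5.42 to 5.56 with the AMPKα2 shRNA and 4.49 to 4.56 in controls. The 6 leukocyte markers were higher too, at 5.88 to 5.99 with the AMPKα2 shRNA and 4.91 to 4.96 in controls. Of 5 endothelial markers 4 were higher, at 4.81 to 5.05 with the AMPKα2 shRNA and 4.11 to 4.31 in controls, and of 4 podocyte markers 2 were higher and 1 was lower, at 6.05 to 6.38 with the AMPKα2 shRNA and 5.89 to 6.03 in controls. Relative to genes of like level the median changes of these 4 lists were 0.22, 0.23, 0.14 and -0.14. Of these markers, 7 of 8, 4 of 6, 5 of 5 and 2 of 4 lay below the array medians in both groups, and a log2 scale has no 0. All arrays are from the NRK-52E line, and the part of these markers in the results below was not tested. More or fewer cells expressing a marker cannot be told apart from more or less of its RNA per cell.

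Of the 10 genes, 3 were higher with the AMPKα2 shRNA (Timp3, Mmp2 and Mmp9), 5 were lower (Timp1, Mmp13, Mmp14, Mmp3 and Adamts1), and Mmp10 and Timp2 did not pass. The 8 that passed are a share close to the 85.1% of all genes, so the count is no result about these genes. Their median change was -0.26, against 0.05 over all genes, and -0.15 against 0.16 under quantile scaling. The genes differed from each other far more than the arrays of a group did: changes ran from -2.45 to 1.48 on the log2 scale. In 7 of the 10 the call had the same direction under all 4 scalings (as deposited, median centred, quantile and loess), a share that was 51.8% over all genes. The other three, Mmp10, Timp2 and Adamts1, are given with their values under each scaling.

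**Figure D1:**
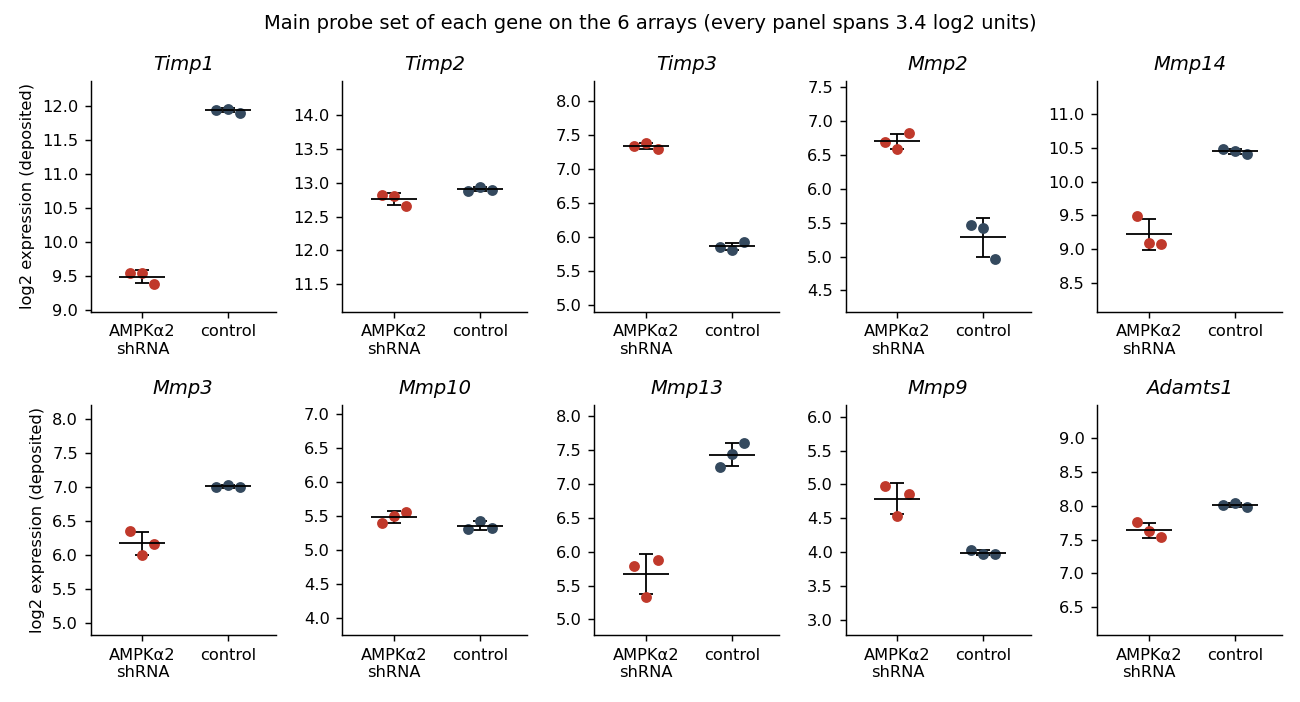
Deposited log2 expression of the main probe set of each gene, 1 panel per gene, with points for the 3 AMPKα2 shRNA arrays (red, left) and the 3 control arrays (dark, right), and bars for the mean and SD. Timp1 sits at 9.38 to 9.54 with the AMPKα2 shRNA and at 11.90 to 11.96 in controls, and among the 10 panels the groups overlap in that of Mmp10.

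The inhibitors went separate ways. Timp1, which encodes a secreted inhibitor of most soluble metalloproteinases, was at 9.54, 9.54 and 9.38 on the AMPKα2 shRNA arrays, against 11.94, 11.96 and 11.90 on the control arrays. All AMPKα2 shRNA arrays lay far below all control arrays. On the log2 scale Timp1 fell by 2.45 (SE 0.08, limma, adjusted p = 3.12e-09), which is 5.47-fold lower, and 1.4% of all genes had a larger change in either direction. Genes of like level, which span control levels of 10.86 to 12.99 because few genes are so high, had a median change of -0.57, and 1.6% of them had a lower change than Timp1. The change was -1.99 under quantile scaling and -1.87 under loess scaling.

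Timp3, which encodes the inhibitor that binds to the matrix and also blocks several ADAM and ADAMTS proteases, was at 7.34, 7.39 and 7.30 on the AMPKα2 shRNA arrays, against 5.86, 5.81 and 5.93 on the control arrays. The AMPKα2 shRNA arrays were all higher and the groups were far apart. Timp3 rose by 1.48 (SE 0.08, limma, adjusted p = 4.88e-08), or 2.79-fold, and 97.4% of genes of like level had a lower change, with a median of 0.69. The rise was 1.64 under quantile scaling and 1.46 under loess scaling. All 3 other probe sets of Timp3 rose as well, by 1.48, 1.17 and 0.64, from control levels of 4.29, 4.06 and 3.58. The smallest of them, 0.64, was 0.23 under quantile scaling and 0.22 under loess scaling, and neither of these passed.

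Timp2 encodes the inhibitor that also takes part in the activation of the MMP2 precursor at the cell surface. Its main probe set was at 12.82, 12.80 and 12.66 on the AMPKα2 shRNA arrays, against 12.88, 12.93 and 12.90 on the control arrays. The groups did not overlap but lay close together. The change of -0.14 did not pass (limma, adjusted p = 0.122), with a 95% interval from -0.33 to 0.04. It was -0.06 under quantile scaling and 0.12 under loess scaling, which did not pass, and -0.36 under median centring, which did. This probe set lies near the highest deposited value of 13.84. Genes of like level, which span control levels of 10.89 to 13.75, had a median change of -0.50. Of them, 73.2% had a lower change than this probe set. The other probe set of Timp2 was at 6.76, 6.94 and 7.01 on the AMPKα2 shRNA arrays, against 8.02, 7.83 and 8.05 on the control arrays, and it fell by 1.06 (limma, adjusted p = 2.98e-06), with -0.62 under quantile scaling and -0.64 under loess scaling. The probe sets of Timp2 thus disagree in size, and no single change is given for the gene.

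Within an array, the log2 value of Timp3 minus that of Timp1 was -2.20, -2.15 and -2.07 on the AMPKα2 shRNA arrays, against -6.09, -6.15 and -5.98 on the control arrays. This value shifted by 3.93 towards Timp3, by 3.63 under quantile scaling and by 3.33 under loess scaling. This shows an unequal change and does not give the amount of either transcript relative to the other. Genes of like level moved apart as well, with median changes of 0.69 for Timp3 and -0.57 for Timp1. Relative to them, Timp3 had 0.79 and Timp1 -1.88. The pair was picked after the values had been seen, and no test is given.

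**Figure D2:**
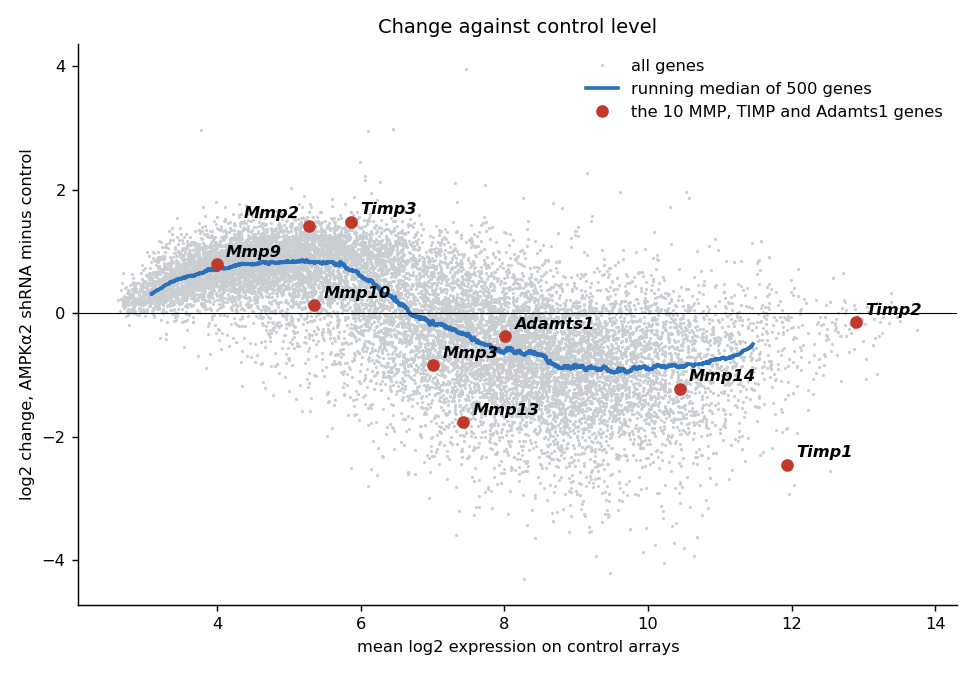
Change of every gene (grey, AMPKα2 shRNA minus control, log2) against its mean log2 expression on the control arrays, with a running median of 500 genes (blue) and the 10 genes in red. Mmp13 (-1.76) lies well under the median line, and Timp1 (-2.45) lies far under the level at which that line ends on the right. Mmp3 (-0.84), Mmp10 (0.13) and, less so, Mmp14 (-1.22) also lie under the line. Mmp2 (1.42), Timp3 (1.48) and, less so, Adamts1 (-0.37) lie above it, while Mmp9 lies close to it.

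As deposited, the main probe sets of the gelatinase genes rose, that of Mmp9 about as much as genes of like level. Mmp2 encodes gelatinase A, which degrades denatured collagen and basement membrane collagen IV. Its main probe set was at 6.69, 6.59 and 6.82 on the AMPKα2 shRNA arrays, against 5.47, 5.41 and 4.96 on the control arrays. The groups were apart, with 1 control array lower than the other two, and the change ran from 1.25 to 1.51 when each array in turn was left out. Mmp2 rose by 1.42 (SE 0.13, limma, adjusted p = 2.34e-06), or 2.67-fold, and 95.4% of genes of like level had a lower change, with a median of 0.83. The rise was 1.33 under quantile scaling and 1.05 under loess scaling. Its other probe set rose by 1.06, and by 0.79 under quantile scaling and 0.55 under loess scaling, with 3 close control values of 5.09 to 5.12.

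Mmp9, which encodes gelatinase B, was at 4.98, 4.54 and 4.86 on the AMPKα2 shRNA arrays, against 4.03, 3.98 and 3.98 on the control arrays. The groups were apart, at levels low on both. Mmp9 rose by 0.79 (SE 0.11, limma, adjusted p = 5.39e-05), while genes of like level had a median change of 0.70 and 60.6% of them a lower change than Mmp9. The rise was 0.34 under quantile scaling (adjusted p = 0.025) and 0.28 under loess scaling (adjusted p = 0.043). The other probe set of Mmp9 had a change of 0.19 that did not pass (limma, adjusted p = 0.128) and turned to -0.25 under quantile scaling and -0.27 under loess scaling, which did not pass either. Whether Mmp9 stood above array background was not tested, since the deposited values hold no detection call.

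Mmp14 encodes the membrane-anchored MT1-MMP, which cleaves fibrillar collagen at the cell surface and activates the MMP2 precursor there. It was at 9.49, 9.10 and 9.08 on the AMPKα2 shRNA arrays, against 10.48, 10.45 and 10.41 on the control arrays. All AMPKα2 shRNA arrays were lower, with a wider spread among them than among controls. Mmp14 fell by 1.22 (SE 0.11, limma, adjusted p = 2.07e-06), or 2.34-fold, but genes of like level had a median change of -0.88 and 34.8% of them had a lower change. The change was -0.54 under quantile scaling and -0.55 under loess scaling, and both passed. Its other probe set fell by 0.89, with -0.15 under quantile scaling and -0.19 under loess scaling, neither of which passed. Mmp2 minus Mmp14 within an array was -2.80, -2.51 and -2.26 on the AMPKα2 shRNA arrays, against -5.01, -5.04 and -5.45 on the control arrays. This is a shift of 2.64 that was 1.87 under quantile scaling and 1.599 under loess scaling. Genes of like level moved apart as well, with median changes of 0.83 for Mmp2 and -0.88 for Mmp14. Relative to them, Mmp2 had 0.58 and Mmp14 -0.35, and no test is given for the shift.

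Of the clustered genes on chromosome 8, Mmp13 fell furthest. It encodes collagenase-3, the main interstitial collagenase of rodents, and was at 5.79, 5.33 and 5.88 on the AMPKα2 shRNA arrays, against 7.25, 7.44 and 7.60 on the control arrays. Every AMPKα2 shRNA array was more than 1 log2 unit below every control array. Mmp13 fell by 1.76 (SE 0.14, limma, adjusted p = 8.46e-07), which is 3.39-fold lower, and 5.2% of genes of like level had a lower change, with a median of -0.33. The change hardly depended on the scaling, at -1.74 under quantile scaling, -1.81 under loess scaling and -1.98 under median centring.

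Mmp3 encodes stromelysin-1, which cuts proteoglycans and activates other metalloproteinase precursors. It was at 6.352, 6.004 and 6.157 on the AMPKα2 shRNA arrays, against 6.998, 7.028 and 7.007 on the control arrays. The control arrays were nearly equal and all above the AMPKα2 shRNA arrays. Mmp3 fell by 0.84 (SE 0.10, limma, adjusted p = 1.3e-05), or 1.79-fold, with -0.79 under quantile scaling and -0.87 under loess scaling. Of genes of like level, 21.6% had a lower change, and their median was -0.16.

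Mmp10, which encodes stromelysin-2, was at 5.39, 5.50 and 5.57 on the AMPKα2 shRNA arrays, against 5.31, 5.43 and 5.32 on the control arrays. The groups overlapped. Its change of 0.13 did not pass (limma, adjusted p = 0.17), with a 95% interval from -0.06 to 0.32. Genes of like level had a median change of 0.82, and 11.4% of them a lower change than Mmp10. Under quantile scaling the change was -0.25 (adjusted p = 0.0157) and under loess scaling -0.44 (adjusted p = 0.000713), and both passed. Under median centring it was -0.085, which did not pass. A direction for Mmp10 therefore depends on the scaling. Mmp10 minus Mmp13 within an array moved by 1.89 towards Mmp10, and by 1.49 under quantile scaling and 1.38 under loess scaling. Mmp10 minus Mmp3 moved by 0.97, 0.54 and 0.43 in the same order. Relative to genes of like level, however, the changes of Mmp10 and Mmp3 were close, at -0.69 and -0.68, and that of Mmp13 was -1.43. No test is given for these differences. The windows printed above hold TGAGTCA at nearly the same distance from their start in all 3 genes, and that of Mmp3 also holds TGAGTAA and CAGGAAG. The part of these letters in the values was not tested.

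Adamts1 encodes a secreted protease that cleaves the proteoglycans aggrecan and versican. It was at 7.76, 7.63 and 7.53 on the AMPKα2 shRNA arrays, against 8.01, 8.04 and 7.97 on the control arrays, and the groups did not overlap. As deposited it fell by 0.37 (SE 0.09, limma, adjusted p = 0.00213), but genes of like level had a median change of -0.61 and 62.4% of them a lower change than Adamts1. It turned to 0.23 under quantile scaling (adjusted p = 0.0189) and 0.19 under loess scaling (adjusted p = 0.0316), and was -0.58 under median centring (adjusted p = 8.16e-05), so its direction was not settled.

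**Figure D3:**
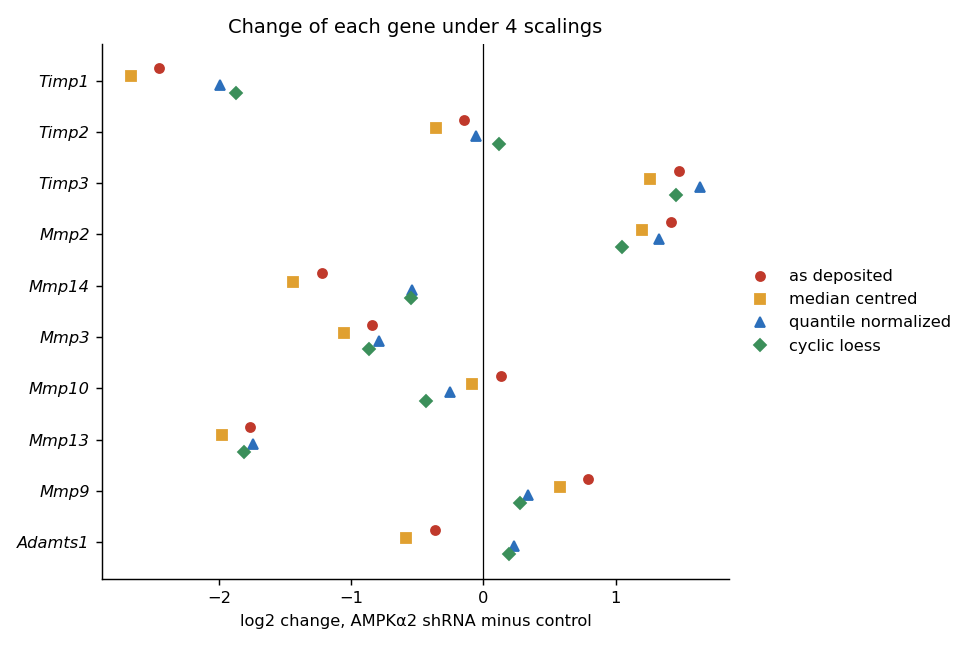
Change of each gene (log2, AMPKα2 shRNA minus control) as deposited (red circles), median centred (orange squares), quantile normalized (blue triangles) and under loess scaling (green diamonds). Timp1, Mmp14, Mmp3 and Mmp13 stay left of 0 and Timp3, Mmp2 and Mmp9 right of it in all 4, while Timp2, Mmp10 and Adamts1 cross 0.

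Of the 17 probe sets, 14 passed an adjusted p of 0.05 over all probe sets, where 81.9% of all did. The 5 genes with more than 1 probe set were Timp3, Mmp2, Mmp14, Mmp9 and Timp2. For Timp3, Mmp2 and Mmp14 every probe set passed in 1 direction as deposited. For Mmp9 and Timp2 1 probe set of each did not pass. The genes most like Timp3 in their differences from the control mean over the 6 arrays were Slc5a12, Cxcr5 and Ddc, at Euclidean distances of 0.051, 0.090 and 0.117 log2 units and with changes of 1.49, 1.49 and 1.53. Those most like Timp1 were Rad18, Ifrd1 and Ociad1, at distances of 0.073, 0.093 and 0.097 and with changes of -2.48, -2.43 and -2.44. The likeness rests mostly on the size of the difference between the groups.

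**Figure D4:**
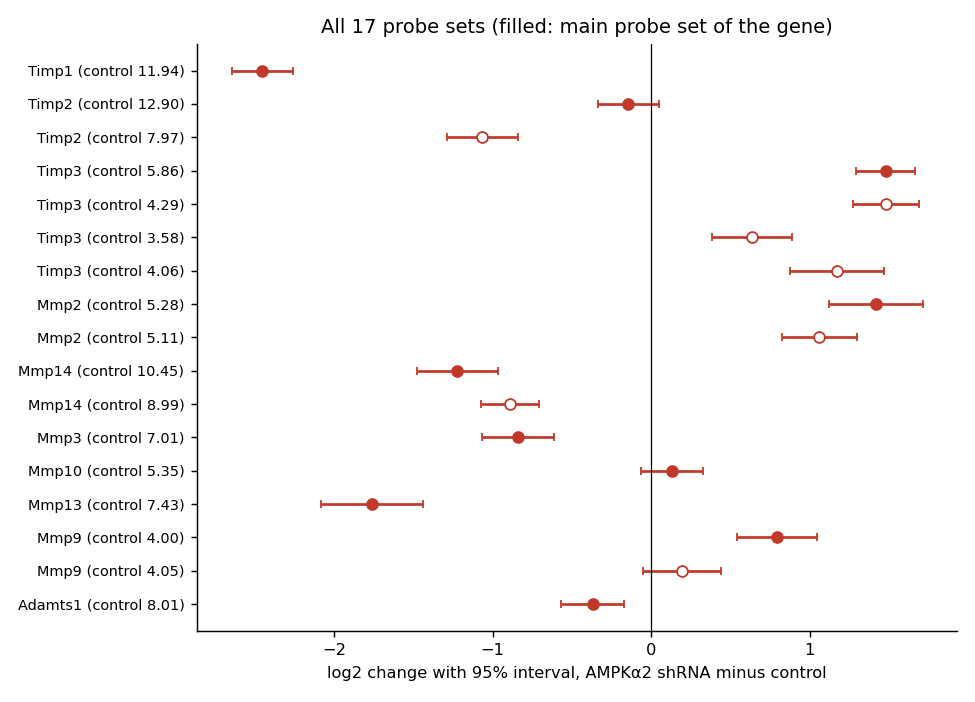
Change of all 17 probe sets (log2, AMPKα2 shRNA minus control) with 95% intervals from limma, filled for the main probe set of a gene and open for the others, with the mean log2 level on the control arrays in each label. The 4 probe sets of Timp3 lie right of 0, at 0.64 to 1.48, and those of Timp2 lie apart, at -0.14 and -1.06.

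Further genes of the same system came from fixed lists. Of 11 other measured metalloproteinase genes, 7 were higher, 1 was lower and 3 did not pass, with a median change of 0.63, beside 43.6% higher and 41.5% lower among all genes. Under quantile scaling 4 were higher and 1 was lower, beside 44.0% and 28.7% among all genes. Relative to genes of like level their median change was 0.00. Mmp17 and Mmp23, which encode membrane-bound enzymes, rose by 1.11 and 1.08, and by 1.37 and 1.27 under quantile scaling. Mmp16, which encodes the membrane-anchored MT3-MMP, fell by 1.24 (limma, adjusted p = 1.6e-07), with -0.97 under quantile scaling.

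Of 9 ADAM genes, which encode membrane proteases related to the metalloproteinases, 2 were higher, 3 were lower and 4 did not pass, and under quantile scaling 4 were higher and 3 lower. Adam8 fell by 2.26 (SE 0.10), to 6.29 with the AMPKα2 shRNA, against 8.55 in controls, and 3.6% of genes of like level had a lower change. Adam15 fell by 1.28, with -0.65 under quantile scaling. Adam19 and Adam22 rose by 0.92 and 0.88, and by 1.09 and 0.44 under quantile scaling. Relative to genes of like level they had 0.41 and 0.09.

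Of 11 other ADAMTS genes, 9 were higher, 1 was lower and 1 did not pass, with a median change of 0.74 that was 0.12 relative to genes of like level. Under quantile scaling 6 were higher and 0 lower. Adamts15, which encodes a versican-cleaving protease, rose by 1.57 (SE 0.09), to 6.17 with the AMPKα2 shRNA, against 4.60 in controls, and 99.6% of genes of like level had a lower change. Adamts4, an aggrecanase gene, rose by 1.01, and by 0.56 under quantile scaling. Adamts10 had -0.53 as deposited and 0.09 under quantile scaling, which did not pass.

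Of 16 other inhibitors and activators, 6 were higher, 4 were lower and 6 did not pass, and under quantile scaling 10 were higher and 1 was lower. Timp4, the remaining TIMP gene, rose by 1.25 (SE 0.09, limma, adjusted p = 2.76e-07) from a low control level of 4.24, and by 0.81 under quantile scaling and 0.66 under loess scaling. Plau, the urokinase gene, whose product starts the plasmin cascade that activates metalloproteinase precursors, rose by 0.83. Its change was 0.45 under quantile scaling, which passed, and 0.25 under loess scaling, which did not. Relative to genes of like level it was -0.003. Pcsk6, which encodes a proprotein convertase, fell by 1.67, with -1.31 under quantile scaling. Furin, the gene of the convertase that activates the MMP14 precursor, had -0.55 as deposited but 0.19 under quantile scaling, and both passed.

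Of 6 genes of collagen uptake and lysosomal breakdown, 3 were higher, 1 was lower and 2 did not pass. Ctsd and Ctsb, the cathepsin D and B genes, rose by 1.08 and 0.40, and by 1.44 and 0.58 under quantile scaling. Lrp1, an endocytic receptor for metalloproteinases and TIMP complexes, had -0.36 as deposited and 0.38 under quantile scaling, both of which passed.

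Of 11 AP-1 and ETS factor genes, the families that bind the motifs named above, 3 were higher, 7 were lower and 1 did not pass, with a median change of -0.77 that was -0.07 relative to genes of like level and -0.02 under quantile scaling. Ets1 fell by 3.87 (SE 0.08), to 6.06 with the AMPKα2 shRNA, against 9.93 in controls, and Etv4 fell by 2.19 (SE 0.15). Under quantile scaling they had -3.60 and -2.18. The other measured ETS genes, Ets2 and Etv5, fell by 1.56 and 1.76, with -0.82 and -1.82 under quantile scaling. Relative to genes of like level, Ets1, Ets2, Etv4 and Etv5 had -3.01, -0.64, -1.78 and -1.57, so the median of the joint list does not describe the ETS genes. Fosb and Fos, which encode AP-1 subunits, rose by 0.71 and 0.68, but had -0.07 and -0.05 relative to genes of like level. Under quantile scaling the change of Fos was 0.59 and that of Fosb, 0.26, did not pass. The other AP-1 genes were mixed as deposited: Fosl1, Junb and Jund were lower, Fosl2 was higher and Jun did not pass. Of these, only Fosl1 was lower under quantile scaling.

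**Figure D5:**
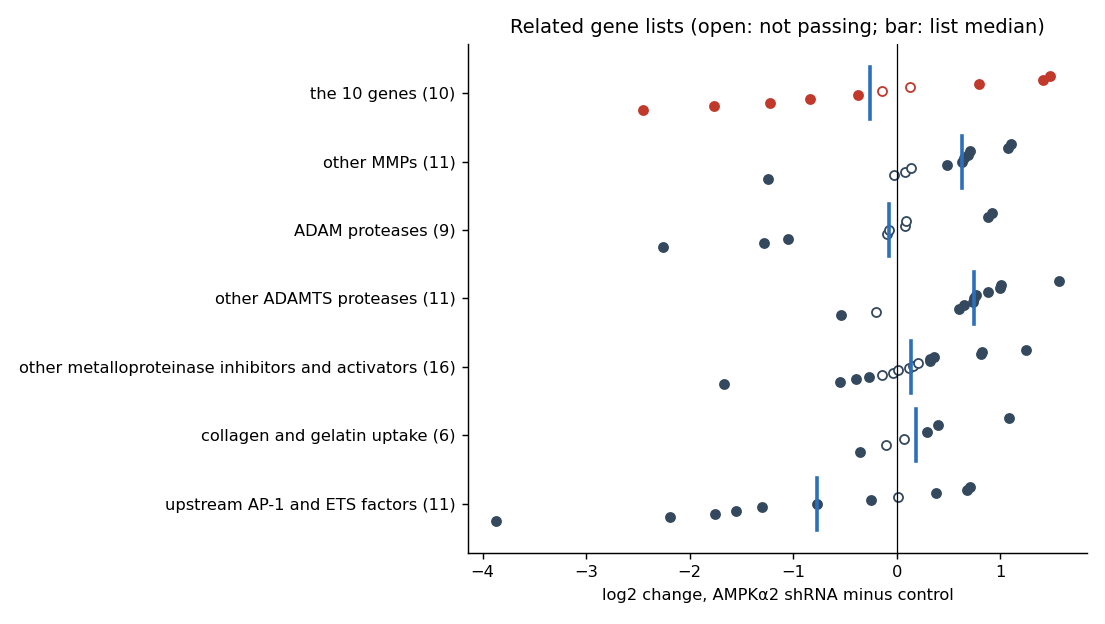
Change (log2, AMPKα2 shRNA minus control) of the 10 genes (red) and of the genes in 6 related lists (dark), 1 point per gene, open where the gene did not pass, with a blue bar at the median of each list. The 10 genes spread from -2.45 to 1.48, and the list of AP-1 and ETS factors reaches -3.87 with Ets1.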

How the data were processed

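The deposited table gives each probe set's log2 expression on each array, and the log base was inferred from the range of 2.37 to 13.84. How the authors treated background and normalized the arrays is not stated in these sources. Per the labels' protocols, biotin-labelled cRNA was made from 10 µg of total RNA. Of the probe sets, 57 array controls were left out; 20826 had 1 gene in the platform annotation, 436 several and 9780 none. RefSeq (GRCr8) matched 20758 of the 20826 by Entrez ID and changed 0 symbols. Promoter sequences are from RefSeq.

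Deposited values of all genes were fitted in limma 3.58.1 under R 4.3.3 (lmFit, eBayes, 2-sided), without filter or covariate, and p-values adjusted by Benjamini-Hochberg over every gene passed below 0.05. Changes are AMPKα2 shRNA minus control. The fit was tested on simulated data in which few genes differed between the groups. That setting is unlike these arrays, where most genes differed, so it does not bear on the counts here. Genes of like level and their percentages are descriptions without a test. All 10 genes are named. From each related list come those that passed with the largest change, at most 2 rising and 2 falling. The other measured AP-1 and ETS genes are named beside Fos, Fosb, Ets1 and Etv4. The 3 genes most like the member with the largest rise and the largest fall are named by distance over the arrays. Genes and lists were chosen with earlier results of these data known. Alternatives were other scalings, level filters, probe set choices, variance models, array weights, a replicate block and leaving out each array. The number of arrays limits the precision.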

Additional observations from a re-analysis of the deposited data

How the results depend on the processing

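Timp1, Timp3, Mmp2, Mmp3, Mmp9, Mmp13 and Mmp14 kept their direction and passed in every alternative that could be run for them. Level filters, variance models and the replicate block leave a gene's change as it is, so they could alter only whether it passed. The other probe sets of Mmp9 and Mmp14 entered only through the mean of probe sets. Taken alone, as given above, each did not pass under quantile or loess scaling. Leaving out the lowest 50% of genes by mean level, which tests fewer genes, left 6023 genes and 13024 probe sets passing, against 12095 and 25419. Of the 10 genes this filter kept Mmp14, Timp1, Adamts1 and Timp2. The first 3 of these passed and Timp2 did not, as without the filter, and the rest of the 10 were not tested there. Mmp10 turned to -0.25 with quantile normalization, -0.085 with median centring and -0.44 with cyclic loess. Adamts1 turned to 0.23 with quantile normalization and 0.19 with cyclic loess, and Timp2 to 0.12 with cyclic loess. Timp2 passed at -0.36 after median centring, -0.60 with the mean of probe sets, -1.06 with the most variable probe set and -0.14 with an intensity trend. The cause was not tested. Relative to genes of like level, Timp2 was 0.36 with the 500 nearest genes, 0.17 with 200 and 0.55 with 1000, and Timp1 was -1.75 with 1000. With nearness by mean level over all arrays the values were 0.80 for Mmp2, -0.98 for Mmp3, -1.86 for Mmp13, -0.58 for Mmp14, -1.99 for Timp1, 0.17 for Timp2 and 1.38 for Timp3. Leaving out each array gave 8 of the 10 genes each time, 11573 to 12024 genes and 24030 to 25077 probe sets. With the replicate number as a block, 8 of the 10 genes and 12039 genes passed, and the block changed no call among the 10. Same-numbered arrays did not deviate together (correlations of -0.01, 0.01 and -0.07), which cannot show whether they were handled together. Without detection calls, low values such as those of Mmp9 cannot be told apart from background.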
